A study of Homo sapiens with 12 samples.

Results

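The comparison described here, 6 of the study's 12 arrays, set A549 cells that received a plasmid for the intracellular domain of SEMA5A (ICD) against A549 cells that received the control plasmid, called Empty in the labels. Its members were the probes with a detection p-value, the scanner's test of a probe against the array's negative controls, under 0.05 on all 3 arrays of either group, which 17954 of 47323 probes met. Of these, 16146 were detected on all arrays of both groups, 1018 entered through ICD alone and 790 through Empty alone. The study measured RNA on 12 single-colour Illumina bead arrays, 3 for each of 4 plasmids, taken 24 h after transient transfection with the jetPRIME reagent. The groups were ICD, ECD (extracellular domain), Full (full-length protein) and Empty. All cells were A549, an established non-small cell lung cancer line, and all groups, Empty included, were transfected. The labels do not name the plasmid promoter, a tag or the share of cells transfected. They number the replicates but not the transfections behind them, so p-values here reflect array-to-array spread that may be technical.

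SEMA5A is a transmembrane semaphorin, a family of axon guidance proteins that signal through plexin receptors and act on the cytoskeleton. Its extracellular part holds the sema domain and thrombospondin repeats, and its cytoplasmic tail is short. Cells that sense foreign nucleic acid make interferon, whose receptors activate STAT factors that bind a promoter element named the interferon-stimulated response element (ISRE) and switch on antiviral genes.

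Between 19214 and 20076 probes were detected on each of the 6 arrays, and bright probes, at the 95th percentile, had 8.54 to 9.55 times the background intensity. Across the tested probes, arrays correlated at r = 0.9936 to 0.9945 within ICD, 0.9950 to 0.9953 within Empty, and 0.9889 to 0.9909 between ICD and Empty, where probes are not independent replicates. Probes just inside the detection rule, at a p of 0.04935, numbered 99 and averaged 4.57 to 4.98 in normalized log2 intensity. The 38 probes just outside it, at 0.05065, averaged 4.58 to 4.94. A549 derives from alveolar epithelium, and 5 of 18 alveolar markers on the array were detected on all ICD arrays and on all Empty arrays (ABCA3, KRT18, KRT8, LAMP3 and MUC1). No endothelial marker of 8 was detected in either group, fibroblast markers were at 0 of 10 with ICD and 1 of 10 with Empty, and leukocyte markers at 2 of 11 with ICD and 1 of 11 with Empty, among them CD68. The summed intensities of the leukocyte markers were 1542 to 1668 on the ICD arrays, against 1508 to 1518 on the Empty arrays, and their part in the results was not tested. Both probes of SEMA5A were below background on all 12 arrays, with intensities of 85.4 to 101.3 on the ICD and Empty ones. Where these probes lie relative to the transfected sequences was not examined, so they do not check the labels.

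Beyond the interferon genes, most changes with ICD were small and ran in both directions. With limma and Benjamini-Hochberg adjustment over all 17954 probes, 627 probes (3.49%) were higher and 688 (3.83%) lower with ICD than with Empty at an adjusted p under 0.05. The median size of a called change was 1.37-fold for higher and 1.39-fold for lower probes. With arrays scaled to equal medians in place of quantile normalization, 400 probes were higher and 269 lower, so the share of higher calls was 59.8%, against 47.7% in the first fit. The way a probe entered bears on its direction: those that entered through ICD alone had 74 higher and 0 lower calls, and those that entered through Empty alone had 0 higher and 29 lower calls. Among probes detected in both groups, 553 were higher and 659 lower. At 2-fold or more stood 29 higher and 6 lower probes. Leaving out any 1 of the 6 arrays cut the calls to between 221 and 395 higher and between 223 and 393 lower, the lowest without Empty replicate 3. Of 147 calls picked by the rule for named genes, 59 held whichever array was left out, and none turned direction.

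A gene was represented by its brightest tested probe, which gave 10600 named genes. Of these, 451 (4.25%) were higher and 246 (2.32%) lower with ICD, with a median log2 change over all of 0.03, and 43.7% of all genes had a negative change. At an unadjusted p under 0.05 limma found 1560 (14.7%) higher and 968 (9.13%) lower. These shares of all 10600 genes are the background for each list below. All 3 ICD arrays lay above all 3 Empty arrays for 2124 genes (20%), and below them for 1381 (13%). Outside 4 lists of interferon-stimulated genes, nucleic acid sensors, antigen presentation genes, and interferons and cytokines, 416 of 10498 genes (3.96%) were higher and 245 (2.33%) lower. The changes outside those lists were small: 74 of the higher and 44 of the lower genes reached 1.5-fold, and 7 higher and 4 lower genes reached 2-fold. In the 4 lists, 35 of 102 genes were higher and 1, the chemokine CCL2, was lower (log2 -0.72, limma adjusted p = 0.00328). Probes without a gene symbol held 89 of the higher and 225 of the lower calls and are not named here.

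**Figure D1:**
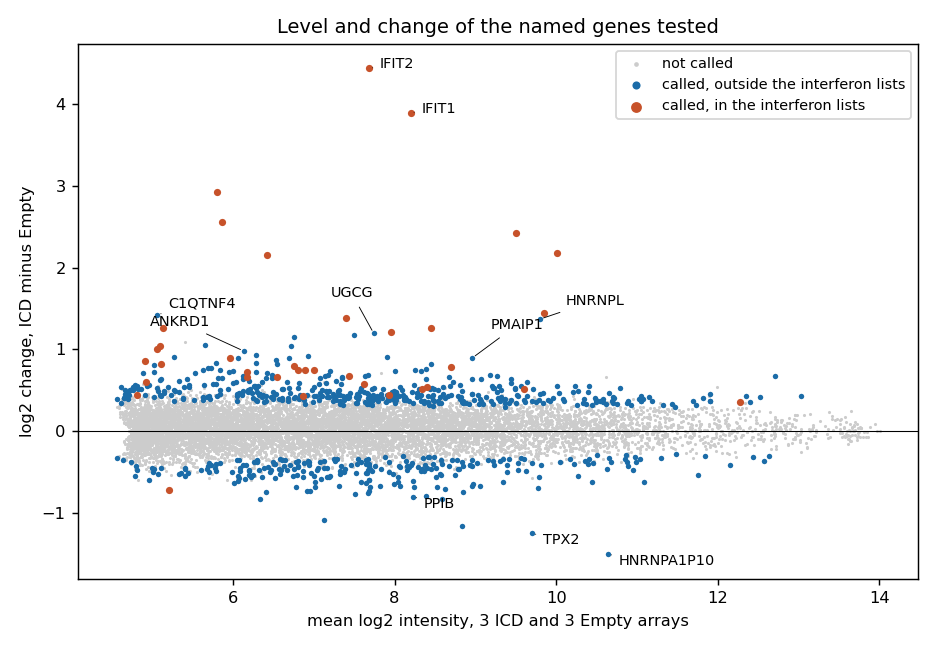
Each point is a named gene, with its mean normalized log2 intensity over the ICD and Empty arrays on the horizontal axis and the log2 change, ICD minus Empty, on the vertical axis; blue and red points are called genes outside and inside the interferon lists. IFIT2 and IFIT1 stand at 4.44 and 3.90, while called genes outside the interferon lists that were detected in both groups lie between -1.51 (HNRNPA1P10) and 1.37 (HNRNPL). C1QTNF4, below background with Empty, is drawn at its fitted value, which is not its bound.

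The interferon genes held the largest changes. IFIT1, which encodes an antiviral RNA-binding protein, had 10.18, 10.20 and 10.06 on the ICD arrays, against 6.30, 6.32 and 6.13 on the Empty arrays in normalized log2 intensity. Every ICD array was far above every Empty array, and the log2 change was 3.90 ± 0.12 (SE, n = 3 each, limma adjusted p = 4.28e-11). IFIT2, of the same family, changed by 4.44. For OASL and IFIT3, which no Empty array showed above background, only bounds can be given, of at least 5.97-fold and 5.49-fold higher with ICD. Of 64 interferon-stimulated genes tested, 28 were higher, but 14 of the 64 entered through ICD alone and 1 through Empty alone. Among the 49 detected in both groups, 20 were higher (40.8%, against 4.18% of all genes so detected), with a median log2 change of 0.30. The interferon count was 24 to 26 with any 1 of the 6 arrays left out. Against the other plasmids, IFIT1 was lower with ICD than with ECD (log2 -1.85, limma adjusted p = 1.61e-07) and than with Full (-0.49, adjusted p = 0.0373). IFIT2 differed from ECD by -1.52 and from Full by -0.22 (adjusted p = 2.12e-06 and 0.28), so its difference from Full was not called.

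The ISRE was looked for in the promoters of the called genes. RefSeq windows from 250 bases before to 50 after the gene start (GRCh38.p14) were available for 8619 of the 10600 genes. The ISRE core was searched as GAAANNGAAA on both strands, and it was held by 3.65% of all 27305 windows and by 2.74% of those of tested genes. It was found in 19 of 27 windows (70.4%) of called higher genes in the interferon lists. Uncalled members of those lists were not counted, so this share describes the called members only. Whether it is tied to the call or to membership of the lists was not tested. Outside those lists it was found in 6 of 326 windows (1.84%) of called higher genes and in 6 of 207 (2.9%) of called lower genes, both near the share of all tested genes. The 6 higher genes with these letters were SMARCA5, SYNJ2BP, TRIM26, SGK1, OGFR and POLR3A, at log2 changes of 0.37 to 0.44, of which OGFR was lower with ICD than with ECD (log2 -0.77, limma adjusted p = 0.000418). These genes were chosen after their values were seen. The IFIT1 window is shown as the example of an interferon promoter (chr10:89392373-89392672, plus strand). Its capitals mark the ISRE letters read on the opposite strand, whose first bases lie at -116 and -103 from the gene start. A match describes letters in this window and is not evidence of a bound site.
IFIT1: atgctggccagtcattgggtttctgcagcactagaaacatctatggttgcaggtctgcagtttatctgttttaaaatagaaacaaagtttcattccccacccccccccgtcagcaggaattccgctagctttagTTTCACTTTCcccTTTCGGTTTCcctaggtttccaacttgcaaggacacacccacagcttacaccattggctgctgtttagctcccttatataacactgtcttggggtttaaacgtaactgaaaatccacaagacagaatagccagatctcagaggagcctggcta

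Among genes outside the interferon lists, the 14 largest increases were picked from called genes with all 3 ICD arrays above all 3 Empty arrays. Their lack of overlap was thus set by the choice and is no further support. They included HNRNPL in RNA processing, UGCG in lipid synthesis and PMAIP1 in cell death, single genes from which no theme is read. The increases were not all particular to ICD. Against Empty, ECD was also higher for HNRNPL, ADAP1 and MIX23 (log2 1.27, 1.49 and 1.30, limma adjusted p = 8.19e-05, 6.34e-06 and 0.00323). For C1QTNF4 it was at -0.03 (adjusted p = 0.912). HNRNPL, a splicing regulator that binds CA-rich RNA, had 10.41, 10.49 and 10.56 on the ICD arrays, against 9.35, 9.04 and 8.96 on the Empty arrays (log2 intensity). It was 2.58-fold higher (log2 1.37 ± 0.15, SE, n = 3 each; limma adjusted p = 9.64e-05), with no overlap between the groups. UGCG, which makes glucosylceramide, the first step of most glycosphingolipid synthesis, had 8.50, 8.37 and 8.15 with ICD, against 7.37, 7.15 and 6.92 with Empty. Its lowest ICD array was well above its highest Empty array, and the change was 2.29-fold (log2 1.19 ± 0.13, adjusted p = 9.3e-05). SRGAP1, which acts downstream of Slit and Robo in axon guidance, had 7.39, 7.16 and 7.43 with ICD, against 6.38, 6.18 and 5.97 with Empty. Its change was 2.22-fold (log2 1.15 ± 0.12, adjusted p = 8.46e-05), again without overlap.

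ANKRD1, an ankyrin repeat protein known as a YAP target, changed by 0.98 and is described with its list. CNST, known as consortin, a sorting receptor for connexins, rose by 1.04 on the log2 scale, and ADAP1, an Arf GTPase-activating protein, by 1.05. RYBP, a subunit of Polycomb complexes, rose by 0.90, and the zinc finger factor ZNF148 by 0.92. PMAIP1, which encodes the pro-apoptotic protein NOXA, had 9.34, 9.64 and 9.25 on the ICD arrays, against 8.60, 8.46 and 8.49 on the Empty arrays. Its lack of overlap between the groups was set by the choice. The change was 0.89 ± 0.13 (adjusted p = 0.00146), and a second tested probe of PMAIP1 was also called, at 0.67. Genes of mitochondrial proteins in this set were MIX23 at 1.17, PPTC7 at 0.90 and OPA3 at 0.91. MIX23 had 7.42 on Empty replicate 1 but 6.74 and 6.60 on the other Empty arrays, and it was not called without Empty replicate 3. OPA3 was called by 1 probe only, while its other tested probes gave -0.05 and 0.06. NBPF9, at 0.92, belongs to a family of near-identical copies, so its probe may not tell the copies apart. C1QTNF4 completes the set. Apart from MIX23, the 14 genes were called whichever of the 6 arrays was left out.

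The 14 largest decreases included a spindle factor, proteins of the secretory pathway and cilium, and sequences related to HNRNPA1. They were picked likewise, with all 3 ICD arrays below all 3 Empty arrays, so non-overlap was again set by the choice. TPX2, which activates Aurora A and nucleates spindle microtubules, had 9.19, 8.81 and 9.22 on the ICD arrays, against 10.39, 10.25 and 10.35 on the Empty arrays. ICD replicate 2 was the lowest, and all ICD arrays were far below Empty (log2 -1.25 ± 0.13, SE, n = 3 each; limma adjusted p = 8.03e-05). Of 71 mitotic genes tested, TPX2 was the 1 lower call and the kinesin KIF20A the 1 higher call (1.41% each, against 2.32% and 4.25% of all genes). KIF20A was at 0.43 and was not called without ICD replicate 1 or Empty replicates 1 or 2. PPIB, a cyclophilin that helps fold collagen in the endoplasmic reticulum, had 8.10, 7.53 and 7.83 with ICD, against 8.60, 8.61 and 8.68 with Empty. Its log2 change was -0.81 ± 0.13 (adjusted p = 0.00291), with ICD replicate 2 the lowest and no overlap. ERGIC2, a protein that cycles between the endoplasmic reticulum and Golgi, was at -0.79, but it was not called when any 1 of the 6 arrays was left out. Its call held with the 6 arrays fitted alone. The shared spread also takes in its Full values of 8.51, 8.77 and 7.61 (SD 0.61, against 0.13 for ICD and 0.11 for Empty). DYNC2LI1, a light chain of the dynein that moves cargo in cilia, was at -0.83, and CIBAR1, a protein of ciliogenesis, at -0.75.

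AK6, an adenylate kinase of ribosome maturation, was at -0.83 with a second called probe at -0.76, but it shares its locus with TAF9, so which of these genes the probes measured is uncertain. TMEM160, a protein of mitochondria, was the most even of the set, with 8.40, 8.45 and 8.57 on the ICD arrays, against 9.24, 9.20 and 9.21 on the Empty arrays (log2 -0.74 ± 0.08, limma adjusted p = 0.000164). S100A3, a calcium-binding protein, fell by 0.75, and is taken up again with its family. SFR1, which supports homologous recombination, fell by 0.73 on its brightest probe, while its second probe gave -0.10. C9orf85, at -0.73, lost its call without ICD replicate 2 and without Empty replicate 3, and a second probe at -0.64 was not called. RHOXF2B and RHOXF2, near-identical homeobox genes on the X chromosome, were at -1.17 and -0.78, and a second RHOXF2B probe gave 0.22, so these copies are uncertain. HNRNPA1P10, HNRNPA1L2 and HNRNPA1 itself, at -1.51, -1.09 and -0.69, are near copies of one another, and which copy each probe measured cannot be told apart.

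**Figure D2:**
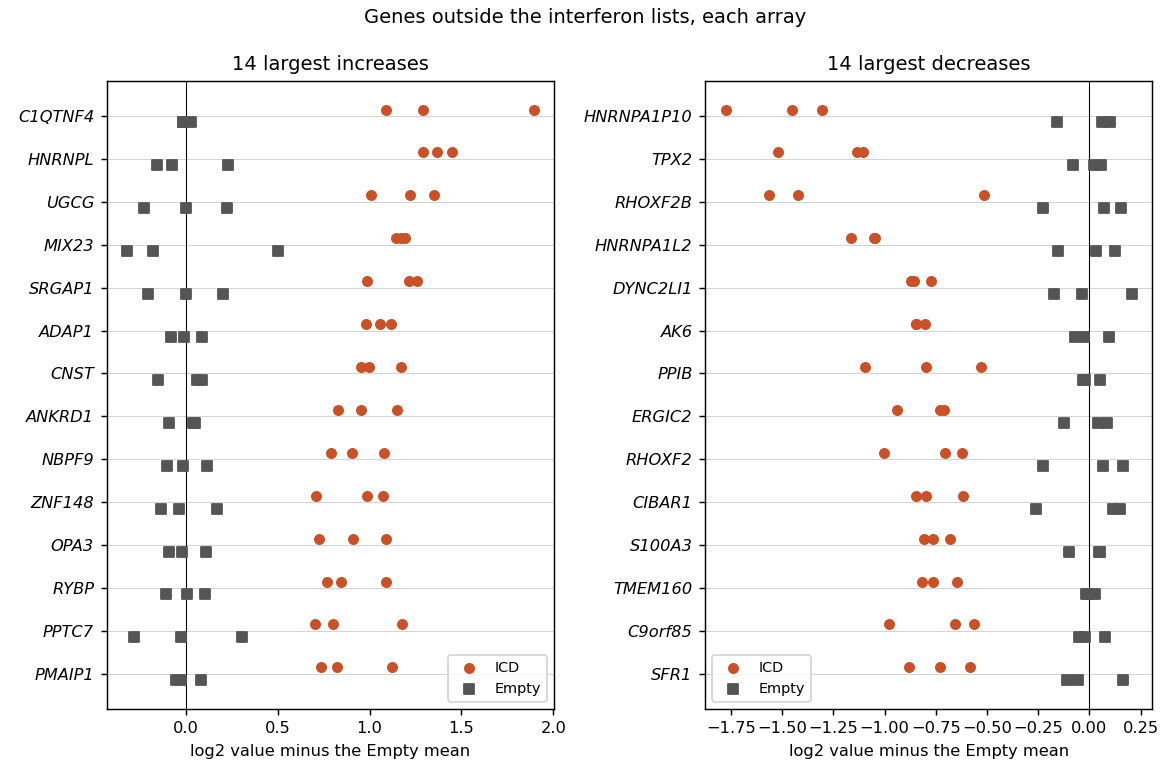
Each row is a gene outside the interferon lists, with its log2 value on each ICD array (circles) and each Empty array (squares) minus the gene's Empty mean on the horizontal axis; the left panel holds the 14 largest increases and the right panel the 14 largest decreases. The genes were picked to have no overlap between the groups. C1QTNF4 has the widest ICD spread on the left and RHOXF2B on the right, and MIX23 has 1 Empty array far from the other 2.

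To find genes at which ICD differed from every other plasmid, ICD was tested against ECD and Full in the same fit. Against ECD, 52 genes (0.491%) were higher and 117 (1.1%) lower with ICD, and against Full 392 (3.7%) were higher and 174 (1.64%) lower. Over probes in either direction these tests called 270 (1.5%) and 959 (5.34%). Outside the interferon lists, 7 genes were higher and 3 lower with ICD than with each of Empty, ECD and Full. Genes are counted here by the symbol of their probe, and the 3 lower ones include near copies of HNRNPA1. Since the 3 comparisons share the ICD arrays, they are not independent of one another.

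C1QTNF4, a secreted C1q and TNF related protein, had 5.64, 6.24 and 5.44 on the ICD arrays and was detected on all 3. It was at 4.27, 4.40 and 4.29 on the ECD arrays, 4.26, 4.32 and 4.27 on the Full arrays, and 4.38, 4.34 and 4.34 on the Empty arrays, and was detected on no array of these groups. It was at least 2.13-fold higher with ICD than with Empty (limma adjusted p = 7.22e-05). Its probe entered through ICD alone, the group where it is high, so this p is no independent support for the difference. TPX2 was lower with ICD than with ECD (log2 -1.39, adjusted p = 1.16e-05) and than with Full (-0.97, adjusted p = 0.00237). On ECD it had 10.26, 10.73 and 10.42, and on Full 9.95, 10.18 and 10.01, so the ICD arrays were the low group of the 4. HNRNPA1P10 differed from ECD by -1.43 and from Full by -1.20, and HNRNPA1L2 by -0.82 and -0.89. The probe assigned to HNRNPA1 was at -0.19 against ECD and -0.32 against Full (adjusted p = 0.565 and 0.145). As these sequences are near copies, the values describe probes, and which copy each probe measured is uncertain.

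The other 6 genes that were higher than in all 3 other groups had changes against Empty of 0.37 to 0.50. HOXC4, a homeobox factor, had 8.55, 8.52 and 8.57 on the ICD arrays, against 8.04, 8.05 and 8.21 on the Empty arrays. Its ICD values were close together and above every Empty value (log2 0.45 ± 0.09, limma adjusted p = 0.00872). DEFB123, a beta-defensin, was at 0.50, CHRNA5, a nicotinic receptor subunit, at 0.41, and the iron regulatory aconitase ACO1 at 0.40. The methyltransferase METTL21A was also at 0.40 and the differentiation inhibitor EID2B at 0.37. C1QTNF4 and HOXC4 kept their calls against Empty with any array left out, and the other 5 lost them without any 1 of the 3 Empty replicates. Without ICD replicate 1 EID2B alone of the 5 was called, without ICD replicate 2 all but EID2B, and without ICD replicate 3 DEFB123 alone. Second probes among those 5 were not called: CHRNA5 had one at 0.10, EID2B at 0.00, and METTL21A 3 others at 0.03, -0.22 and -0.27.

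**Figure D3:**
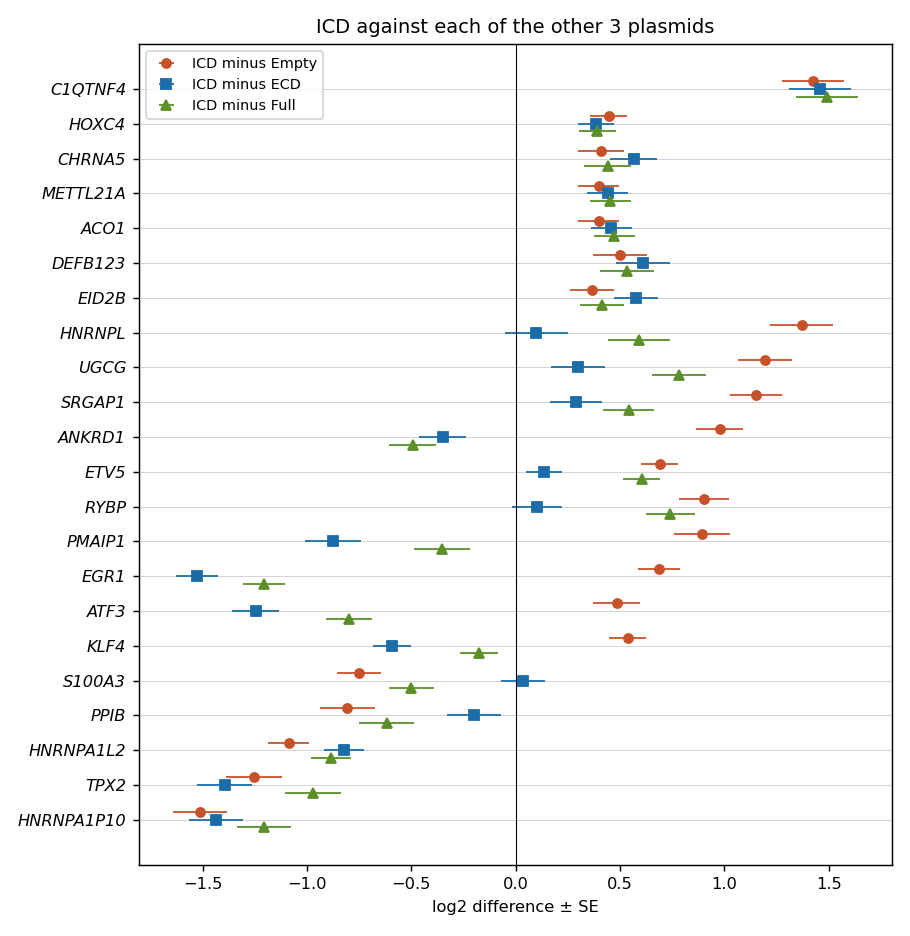
Each row is a gene, with the log2 difference (horizontal axis, ± SE from limma) of ICD minus Empty (circles), ICD minus ECD (squares) and ICD minus Full (triangles). TPX2 and HNRNPA1P10 have all 3 differences on the same side of 0 beyond 0.9, while EGR1 and ATF3 lie above 0 against Empty and below 0 against ECD and Full.

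A few growth factor and early response genes were higher with ICD. Of 24 genes of ERK output and feedback, 4 were higher (16.7%, against 4.25% of all genes). Of these 24, 3 entered through ICD alone, and the 21 detected in both groups had the same 4 calls and a median of 0.23. ETV5, an ETS factor induced by ERK, had 9.50, 9.47 and 9.61 on the ICD arrays, against 8.89, 8.88 and 8.75 on the Empty arrays. The groups were far apart (log2 0.69 ± 0.09, SE, n = 3 each; limma adjusted p = 0.000482), and a second probe was called at 0.54. DUSP5, a phosphatase of ERK, rose by 0.47 (adjusted p = 0.00583). The inhibitors SPRY1 and SPRED1 were at 0.48 and 0.44, and a second SPRY1 probe at 0.24 was not called. The list's count was 2 without ICD replicate 1 or Empty replicate 3. ETV5 and DUSP5 did not differ detectably between ICD and ECD, at 0.14 and 0.05 (adjusted p = 0.532 and 0.845). Against Full, ETV5 was higher with ICD (log2 0.60, adjusted p = 0.00396), while DUSP5 was at 0.26 and not called (adjusted p = 0.0781).

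Of 32 immediate early genes, 4 were higher (12.5%, against 4.25% of all genes), and the list's median was 0.14. EGR1, a zinc finger factor of the serum response, had 7.41, 7.49 and 7.66 on the ICD arrays, against 6.94, 6.77 and 6.80 on the Empty arrays. It rose by 0.68 ± 0.10 (limma adjusted p = 0.00133), and yet it was lower with ICD than with ECD (-1.53, adjusted p = 1.54e-07) and than with Full (-1.20, adjusted p = 9.44e-05). ATF3, a stress-induced factor, showed the same order of groups at 0.48 against Empty, -1.25 against ECD and -0.80 against Full (adjusted p = 0.019, 5.88e-06 and 0.00289). KLF4 was at 0.54 against Empty and -0.59 against ECD (adjusted p = 0.00365 and 0.00158), and PMAIP1 was at -0.88 against ECD (adjusted p = 0.00166). PPP1R15A, the stress-induced phosphatase subunit GADD34, was at 0.43 against Empty and -0.43 against ECD (adjusted p = 0.0147 and 0.0308). The TGF-beta pseudoreceptor BAMBI stood likewise at 0.42 and -0.43, with adjusted p = 0.0171 and 0.0269. BAMBI lost its call against Empty without ICD replicates 1 or 2 or Empty replicates 2 or 3, and in its TGF-beta and BMP list 10 of 12 members were negative, with a median of -0.08. For these genes ICD lay between Empty and ECD. The count of immediate early calls was 2 without Empty replicate 3, and ATF3 was not called without ICD replicate 1 or 2 or Empty replicate 2 or 3.

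YAP and SRF targets, genes that respond to cell shape and tension, had 5 of 20 members higher (25%, against 4.25% of all genes) and a median of 0.14. ANKRD1 had 6.80, 6.47 and 6.60 on the ICD arrays, against 5.55, 5.70 and 5.69 on the Empty arrays. All ICD arrays were clearly higher (1.97-fold, log2 0.98 ± 0.11, SE, n = 3 each; limma adjusted p = 0.000182), while ICD minus Full was -0.49 (adjusted p = 0.0261). CCN1, a secreted matricellular protein, had 9.86, 9.91 and 10.03 with ICD, against 9.46, 9.22 and 9.33 with Empty (log2 0.60 ± 0.10, adjusted p = 0.00421). LATS2, the kinase that restrains YAP, was at 0.71 and near background with Empty, where it was detected on 1 of 3 arrays. It entered through ICD alone, and of the 18 members detected in both groups 4 were higher. CCN2, the connective tissue growth factor, was at 0.47, with a second probe at 0.36 that was not called, and AJUBA, a LIM protein of cell junctions, at 0.46. The list kept 3 calls without ICD replicate 3 or Empty replicate 1.

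YAP acts through TEAD factors, which bind the letters GGAATG. Searched on both strands, these were in 14% of all windows and 10.5% of windows of tested genes, and in 4 of 15 (26.7%) windows of this list. Of the called members, 4 had a window and 3 held the letters: ANKRD1 (chr10:90921038-90921337, minus strand), CCN2 (chr6:131951323-131951622, minus strand) and LATS2 (chr13:21061537-21061836, minus strand). They are printed because all 3 genes were called higher, with the matches in capitals. In ANKRD1 the first bases lie at -220 and -128 from the gene start, in CCN2 at -169, -104 and -95, and in LATS2 at 10. So short a string occurs often, and these few windows support no statement about the factor.
ANKRD1: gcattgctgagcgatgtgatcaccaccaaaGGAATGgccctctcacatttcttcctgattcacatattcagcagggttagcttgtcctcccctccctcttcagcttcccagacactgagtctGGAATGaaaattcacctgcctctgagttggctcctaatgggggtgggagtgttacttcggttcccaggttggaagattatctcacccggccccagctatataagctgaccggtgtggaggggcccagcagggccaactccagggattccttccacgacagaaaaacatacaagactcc
CCN2: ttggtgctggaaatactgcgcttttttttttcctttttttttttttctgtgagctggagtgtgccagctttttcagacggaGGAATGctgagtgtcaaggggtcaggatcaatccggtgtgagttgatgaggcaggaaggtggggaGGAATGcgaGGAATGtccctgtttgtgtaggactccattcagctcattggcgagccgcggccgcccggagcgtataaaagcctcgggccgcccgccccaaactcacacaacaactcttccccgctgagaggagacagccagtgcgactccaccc
LATS2: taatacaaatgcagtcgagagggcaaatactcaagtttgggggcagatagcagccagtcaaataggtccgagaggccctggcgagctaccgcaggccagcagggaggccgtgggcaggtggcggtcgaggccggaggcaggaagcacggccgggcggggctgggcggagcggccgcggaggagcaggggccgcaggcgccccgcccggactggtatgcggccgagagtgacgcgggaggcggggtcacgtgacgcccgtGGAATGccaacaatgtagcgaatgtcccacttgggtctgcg

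The amino acid response, in which the factor ATF4 raises transporters and biosynthetic enzymes, had 6 of 29 members higher (20.7%, against 4.25% of all genes) and a median of 0.25, against 0.03 over all genes. The 2 chains of the large neutral amino acid transporter were both higher. SLC3A2, the heavy chain, had 8.57, 8.87 and 8.79 on the ICD arrays, against 8.32, 8.15 and 8.20 on the Empty arrays (log2 0.52 ± 0.10, SE, n = 3 each; limma adjusted p = 0.00901). Its ICD arrays were all above its Empty arrays, and a second probe was at 0.16 and not called. SLC7A5, the light chain, was at 0.46, the asparagine synthetase ASNS at 0.51 and the serine pathway enzyme PSAT1 at 0.37. ATF3 and PPP1R15A also belong to this list. Of 19 tRNA synthetases, 17 had a positive change, with a median of 0.16, and 2 were called (10.5%), YARS1 at 0.39 and GARS1 at 0.37. The calls in the amino acid list were fragile, with 2 members called without ICD replicate 1 or 2, and 1 without Empty replicate 2 or 3. Of the tRNA synthetases 0 were called without ICD replicate 1, Empty replicate 1 or Empty replicate 3, and 1 without ICD replicate 3 or Empty replicate 2. At an unadjusted p under 0.05 limma found 16 higher members of the amino acid list (55.2%) and 8 higher tRNA synthetases (42.1%), against 14.7% of all genes.

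Several nuclear transport genes were higher with ICD, each by little. Of 54 nucleoporins and transport receptors, 6 were called higher (11.1%, against 4.25% of all genes), and the median was 0.14. At an unadjusted p under 0.05, 18 were higher (33.3%, against 14.7% of all genes). TNPO1, the import receptor transportin, had 7.78, 7.58 and 7.34 on the ICD arrays, against 6.81, 6.90 and 6.77 on the Empty arrays. The ICD arrays were spread but all higher (log2 0.74 ± 0.17, limma adjusted p = 0.0178), and a second probe was called at 0.37. NDC1, which anchors the pore in the membrane, was at 0.49, and the scaffold nucleoporins NUP155 and SEH1L were at 0.45 and 0.42, with other SEH1L probes at 0.25 and -0.01. The importin alpha genes KPNA3 and KPNA4 were at 0.41 and 0.34. None of these calls survived every fit with an array left out, which gave 0 to 4 calls, 0 without Empty replicate 3. The other such fits below 4 were 1 without ICD replicate 1 or Empty replicate 1, and 2 without ICD replicate 3 or Empty replicate 2.

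The splicing list of 83 genes was mixed, with 4 higher (4.82%) and 3 lower (3.61%) members, shares near the 4.25% and 2.32% of all genes. Beside HNRNPL, the SR-like regulator TRA2A had 6.28, 6.34 and 5.70 on the ICD arrays, against 5.30, 5.35 and 5.37 on the Empty arrays. ICD replicate 3 was nearer to Empty than the other ICD arrays, and the change was 0.77 ± 0.15 (limma adjusted p = 0.00885). The kinase SRPK1 and its substrate SRSF1 were at 0.35 and 0.32, and both lost their calls with any array left out. The higher count was 2 without any 1 array other than Empty replicate 1, without which it was 3. HNRNPA1, an antagonist of SR proteins in exon choice, was at -0.69 with a second called probe at -0.75, its near copy HNRNPA1L2 at -1.09, and SNRPE, a core snRNP protein, at -0.53, called in 1 of the 6 fits with an array left out. Small non-coding RNAs were also mixed, with 5 higher (11.6%, against 4.25% of all genes) and 3 lower (6.98%, against 2.32%) of 43 tested. Among them were SNORA28 at 0.56 and SNORD16 at -0.47. Of the 43, 3 entered through ICD alone and 1 through Empty alone. With those detected in both groups there were 3 calls each way among 39 (7.69% each, against 4.18% higher and 2.41% lower of all genes so detected). The higher count among all 43 was 0 without ICD replicate 1 or Empty replicate 2, and 2 or 3 without ICD replicate 3, Empty replicate 1 or Empty replicate 3. The lower count was 0 without Empty replicate 2 or 3 and 1 without ICD replicate 2 or 3 or Empty replicate 1. Under median scaling 4 of the 43 were higher and 0 lower.

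Receptor genes linked to semaphorins were not called against Empty. PLXNB3, the plexin that binds SEMA5A, was detected on none of 12 arrays. PLXNA1 had 7.35, 7.41 and 7.35 on the ICD arrays, against 7.43, 7.35 and 7.24 on the Empty arrays (log2 0.03 ± 0.10, SE, n = 3 each; limma adjusted p = 0.902), and the groups overlapped. NRP1, a semaphorin co-receptor, was at -0.29 (adjusted p = 0.126) and MET, the receptor of hepatocyte growth factor, at 0.18 (adjusted p = 0.223). MET was higher with ICD than with Full (log2 0.36, adjusted p = 0.0339).

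Of 61 actin and adhesion genes, 6 were higher (9.84%, against 4.25% of all genes) and 2 lower (3.28%, against 2.32%). TPM4, a tropomyosin, was at 0.50, with a second probe at -0.10. WASL, which activates the Arp2/3 complex, was at 0.42, the integrin linker TLN1 at 0.37 and the hyaluronan receptor CD44 at 0.32, followed by DIAPH1 and ZYX at 0.34 each. Other CD44 probes, at 0.27 and 0.24, were not called. The 2 lower members both encode Arp2/3 subunits. ARPC3 had 8.91, 9.13 and 9.04 on the ICD arrays, against 9.41, 9.81 and 9.72 on the Empty arrays (log2 -0.62 ± 0.11, limma adjusted p = 0.00392), with no overlap, and ARPC1B was at -0.42, not called without ICD replicates 1 or 2 or Empty replicates 2 or 3. The 6 higher calls fell to 1, 3 and 0 without ICD replicates 1, 2 and 3 and to 2, 0 and 0 without Empty replicates 1, 2 and 3. Under median scaling 2 members were higher and 1 lower.

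A few nuclear genes for mitochondrial proteins were lower with ICD. Of 92 genes of the mitochondrial ribosome and protein import, 67 had a negative change (72.8%, against 43.7% of all genes), the median was -0.12, and 6 were lower (6.52%, against 2.32% of all genes). At an unadjusted p under 0.05 limma found 25 lower (27.2%, against 9.13% of all genes) and 4 higher members. MRPL41, a protein of the large mitochondrial ribosomal subunit, had 10.13, 10.06 and 10.21 on the ICD arrays, against 10.78, 10.70 and 10.80 on the Empty arrays. The groups were separated by several times their spread (log2 -0.62 ± 0.09, SE, n = 3 each; adjusted p = 0.000923). MRPL47 was at -0.68 (adjusted p = 0.00167), with a second probe at -0.34 that was not called, and both genes kept their calls with any array left out. MRPL4 was at -0.56 with a second probe at -0.08, and MRPL20 at -0.39 with a second probe at -0.35. The count fell to 2 without any 1 of ICD replicates 1 and 2 and the 3 Empty replicates, and was 2 under median scaling.

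Of 74 genes of oxidative phosphorylation, 58 had a negative change (78.4%, against 43.7% of all genes), and the median of the list was -0.10. The 4 called ones were lower (5.41%, against 2.32% of all genes) and small. The complex I subunits NDUFA5 and NDUFB11 were at -0.47 and -0.36. The ATP synthase inhibitor ATP5IF1 was at -0.42, with a second probe at -0.03, and the ATP synthase subunit ATP5F1C at -0.30. None was called under median scaling. With 1 array left out the count was 1 without ICD replicate 2 or 3 and 0 without ICD replicate 1 or any Empty replicate, while at an unadjusted p under 0.05 the fit of all arrays held 15 lower (20.3%, against 9.13% of all genes) and 2 higher members. Cytosolic ribosomal protein genes had a median of -0.04, and 2 of 69 were lower (2.9%, near the 2.32% of all genes), RPS4X at -0.32 and RPS13 at -0.31. Neither was called with any array left out or under median scaling, and a second RPS4X probe, at -0.18, was not called. PPTC7, MIX23 and OPA3, the mitochondrial genes among the largest increases, belong to none of these lists.

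**Figure D4:**
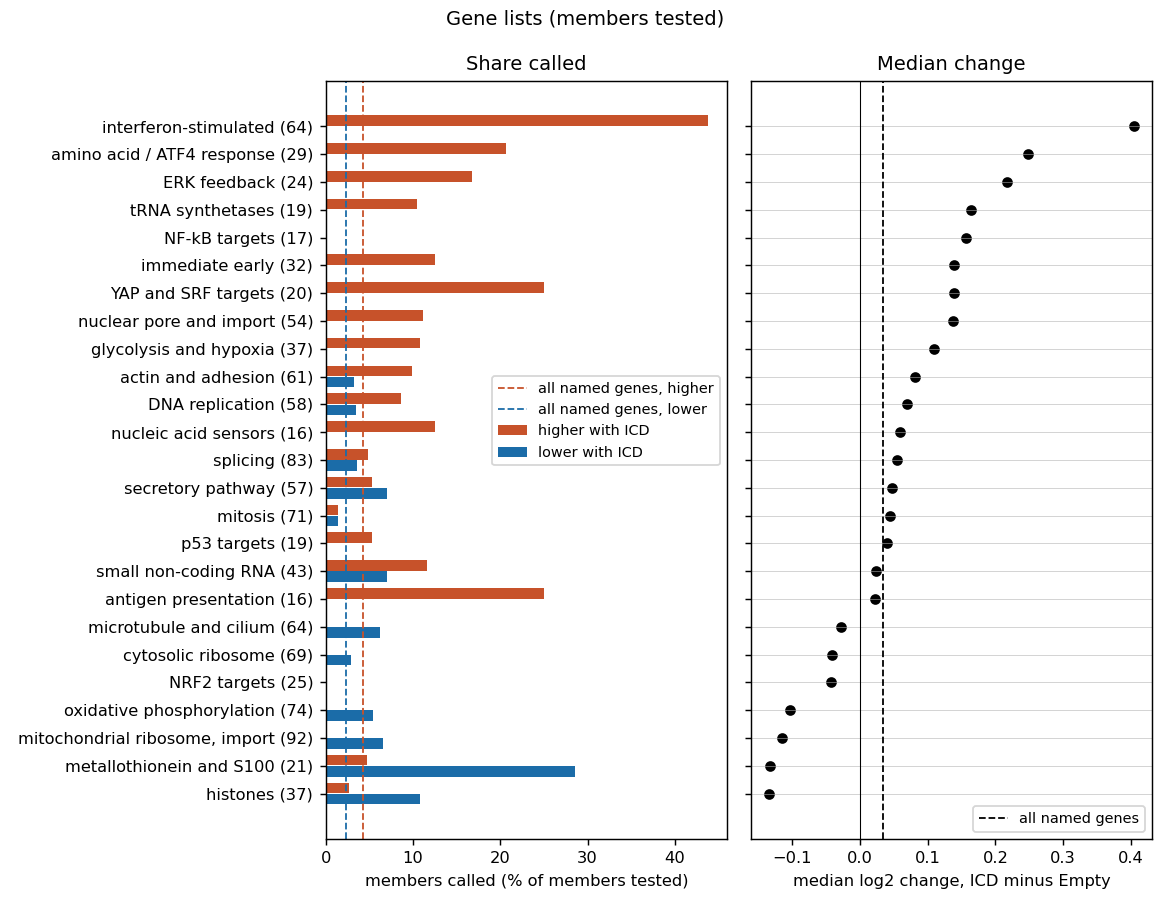
For each list, with the number of members tested in brackets, the left panel gives the share of members called higher and lower with ICD (horizontal axis, %) and the right panel their median fitted log2 change, ICD minus Empty, over all members tested; dashed lines are the values over all named genes. The median is 0.40 for interferon-stimulated genes, 0.25 for the amino acid response and -0.12 for the mitochondrial ribosome and import list, and 28.6% of the metallothionein and S100 list were lower.

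Of 21 metallothionein and S100 genes, 6 were lower (28.6%, against 2.32% of all genes) and 1 was higher, with a median of -0.13. S100A3 had 6.02, 5.98 and 6.11 on the ICD arrays, against 6.69, 6.84 and 6.84 on the Empty arrays. It fell by 0.75 ± 0.11 (SE, n = 3 each; limma adjusted p = 0.00101), with the ICD values below every Empty value. S100A13, a calcium-binding protein that takes part in the release of growth factors lacking a signal peptide, had 9.53, 9.44 and 9.57 with ICD, against 10.00, 10.08 and 10.13 with Empty (log2 -0.56 ± 0.10, adjusted p = 0.00527). Another S100A13 probe was called at -0.42, while 2 other tested ones, at -0.30 each, were not called. S100A16 was at -0.60 and S100A4, a binder of myosin, at -0.51, with a second S100A4 probe at 0.20. The zinc-binding metallothioneins MT2A and MT1X were at -0.42 and -0.38, and the zinc exporter SLC30A1, which like them answers to zinc, was higher at 0.47, with a second called probe at 0.48, though not without ICD replicates 1 or 2 or Empty replicates 2 or 3. S100A3 and S100A13 did not differ detectably between ICD and ECD (0.03 and 0.24, adjusted p = 0.918 and 0.318). Both were lower with ICD than with Full (-0.50 and -0.38, adjusted p = 0.0207 and 0.0444). The lower count was 3 without ICD replicate 1, ICD replicate 2, Empty replicate 1 or Empty replicate 2, and 2 without Empty replicate 3.

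Of 37 histone genes, 4 were lower (10.8%, against 2.32% of all genes) and 1 higher, and 28 had a negative change. H2AC6 was at -0.69, H2BC5 at -0.67 with a second called probe at -0.62, H2BC11 at -0.54 and H2BC6 at -0.51. H4C3 had 13.03, 13.07 and 13.05 on the ICD arrays, against 12.59, 12.30 and 12.23 on the Empty arrays (log2 0.68 ± 0.10, limma adjusted p = 0.00176). The ICD arrays were all higher, in contrast to the other called histones. Histone genes are near copies of one another, so which copy a probe measured is uncertain. The lower count was 2 without Empty replicate 3. Of 64 microtubule and cilium genes, 4 were lower (6.25%, against 2.32% of all genes). With DYNC2LI1 these were the intraflagellar transport genes IFT20 at -0.62 and IFT172 at -0.61, and the dynactin subunit DCTN5 at -0.32, which alone lost its call with any array left out. IFT172 was detected on 1 of 3 ICD arrays and on all Empty arrays, the group through which it entered, and among the 61 members detected in both groups 3 were lower. Of 58 chromatin genes 2 were lower (3.45%, near the 2.32% of all genes), while 38 had a positive change and the median was 0.08. These were the HP1 genes CBX5 at -0.68 and CBX1 at -0.43, and CBX1 lost its call without any 1 array other than Empty replicate 1.

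DNA replication genes were mixed, with 5 higher (8.62%, against 4.25% of all genes) and 2 lower (3.45%, against 2.32%) of 58. RRM1, the large subunit of ribonucleotide reductase, had 11.02, 10.98 and 11.15 on the ICD arrays, against 10.71, 10.47 and 10.40 on the Empty arrays (log2 0.52 ± 0.10, SE, n = 3 each; limma adjusted p = 0.00761). The S phase kinase CDK2 was at 0.45, while a second CDK2 probe was at -0.46 and not called. MCM6 of the replicative helicase was at 0.35, GINS4 at 0.42, and RRM2, the small reductase subunit, at 0.34. The lower members were RFC2 of the clamp loader at -0.62, with a second probe at -0.08, and the primase subunit PRIM2 at -0.46. The higher count was 2 without ICD replicate 2 or 3 or Empty replicate 1 or 3, and 3 without ICD replicate 1. Under median scaling 2 members were higher and 1 lower. Of 41 DNA repair genes, 2 were lower (4.88%), OGG1 and XRCC4, at -0.54 and -0.52, and a second OGG1 probe was at -0.07. Neither was called without Empty replicate 2 or Empty replicate 3, and RFC2 was not called with any array left out.

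Of 37 glycolysis and hypoxia genes, 4 were higher (10.8%, against 4.25% of all genes), and none of the 4 is a glycolytic enzyme. ADM, which encodes the vasodilator adrenomedullin, had 9.37, 9.41 and 9.40 on the ICD arrays, against 8.86, 8.70 and 8.71 on the Empty arrays. The ICD arrays were nearly equal and all higher (log2 0.64 ± 0.09, limma adjusted p = 0.000886). The circadian repressor BHLHE40 was at 0.61, the mitophagy receptor BNIP3 at 0.47, and the lipase inhibitor ANGPTL4 at 0.34, with another tested probe at 0.05. The count was 2 without ICD replicate 2 or Empty replicate 2 or 3.

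Secretory pathway genes had 3 higher (5.26%, against 4.25% of all genes) and 4 lower (7.02%, against 2.32%) members of 57. The cargo receptors of the p24 family split, with TMED2 at 0.52 and TMED10 at -0.52, and the signal recognition particle likewise, with SRP72 at 0.40 and SRP14 at -0.54. A second SRP14 probe, at -0.17, was not called. RPN1 of the oligosaccharyltransferase was at 0.40, LMAN2 at -0.49 and SEC61B of the translocon at -0.29. The lower count was 2 in each fit that left out an array, and the higher one 1 without ICD replicate 3, Empty replicate 1 or Empty replicate 2, and 0 without Empty replicate 3. Folding genes of the endoplasmic reticulum had 2 called in each direction of 40 (5% each, against 4.25% higher and 2.32% lower of all genes). These were ATF6 at 0.42 and TXNDC5 at 0.35 (a second probe at -0.15) against PPIB at -0.81 and FKBP2 at -0.43 (a second tested probe at 0.25). Without Empty replicate 3 PPIB was the 1 call left of these 4. Of 39 heat shock and chaperonin genes, 3 were higher (7.69%, against 4.25% of all genes) and 1 lower (2.56%, near the 2.32% of all genes). DNAJA2, TCP1 and CCT2 were at 0.36, 0.37 and 0.32, and the heat shock factor HSF1 was at -0.57, not called without Empty replicates 2 or 3. Other TCP1 probes were at -0.36 and 0.52, the second called. The 3 higher calls were lost with any array left out and under median scaling.

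The remaining lists held few calls, and single genes are given without reading a list from them. Among ribosome biogenesis genes GNL3L rose by 0.69 (another tested probe at -0.17), UTP6 by 0.45 and RIOK1 by 0.39 (another at 0.17). The poly(A)-binding proteins PABPC1 and PABPC4 were at 0.41 and 0.39, and a second PABPC1 probe at 0.32 was not called. In the lysosome and autophagy list, TFE3, a factor that drives lysosomal genes, was at 0.55, the proton pump subunit ATP6V1B2 at 0.38 and MAP1LC3B at 0.34. The surface peptidases ANPEP and MME were lower at -0.59 and -0.41, and NOTCH1 and FGFRL1 were higher at 0.55 and 0.42, with another FGFRL1 probe at 0.18, and NOTCH1 entered through ICD alone. The proteasome subunits PSMC4 and PSMD2 differed in sign at -0.69 and 0.39. Other PSMC4 probes were at -0.42, called, and at -0.58, not called. The matrix protein THBS1 was at 0.47, the sterol isomerase EBP at -0.56, and PPIA, often used as a control gene, at -0.63. PMAIP1 was the 1 call among 19 p53 targets (5.26%) and among 31 apoptosis genes (3.23%), both near the 4.25% of all genes that were higher. Of these, GNL3L, PABPC1, ANPEP and PMAIP1 were called whichever array was left out, and the other genes named since GNL3L were not called without Empty replicate 2 or without Empty replicate 3. Of 17 NF-kB targets and of 25 NRF2 targets limma called 0 in either direction. At an unadjusted p under 0.05, 4 NF-kB targets were higher (23.5%, against 14.7% of all genes) and 0 lower. Of the NRF2 targets, 3 were then higher (12%) and 2 lower (8%, against 9.13% of all genes).

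The called genes also differed in length, a pattern noticed in these data and given as a description. Outside the interferon lists the median length on the genome was 38.2 kb for called higher genes and 14.9 kb for called lower genes, against 27.4 kb for all tested genes. Of genes under 10 kb, 2.79% were higher and 3.93% lower, whereas of genes from 30 to 100 kb 5.28% were higher and 1.47% lower. Of genes over 100 kb these shares were 4.49% and 1.27%. The median log2 level of genes over 100 kb minus that of genes under 10 kb, each gene first centred over the arrays, was 0.071, 0.064 and 0.034 on the ICD arrays, against -0.044, -0.028 and -0.070 on the Empty arrays. The groups did not overlap and differed by 0.10. The exact permutation test then gives p = 0.10 (two-sided), the smallest that 3 against 3 arrays can give. As the pattern was noticed in these same arrays, this p is no test of it. For ECD the 3 values were 0.117 to 0.142, and for Full -0.225 to -0.062. The lists described above differ in the length of their members, and the part of length in their changes was not tested.

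**Figure D5:**
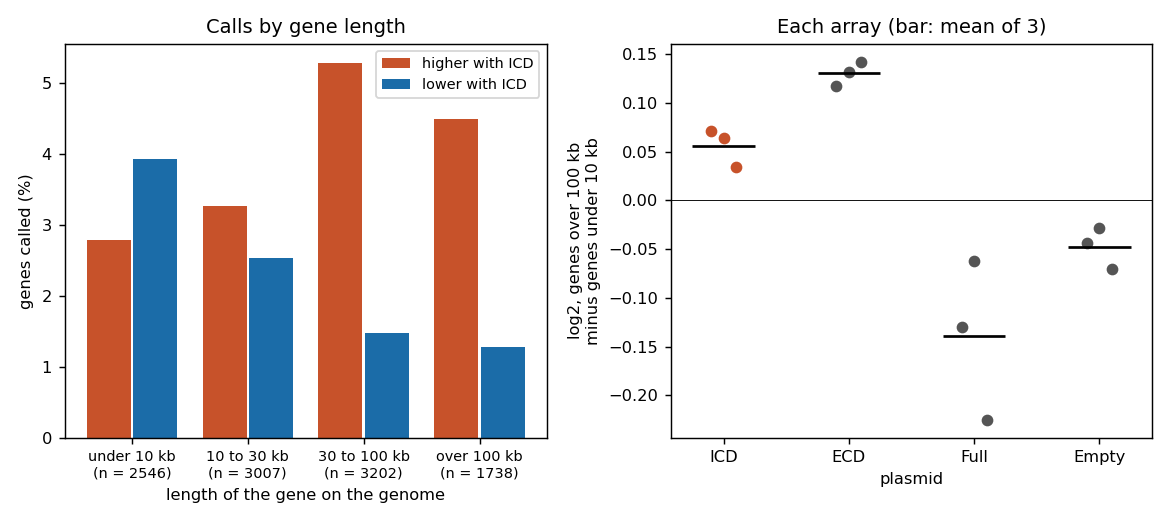
The left panel gives the share of genes called higher and lower with ICD (vertical axis, %) by gene length, and the right panel the median centred log2 level of genes over 100 kb minus that of genes under 10 kb (vertical axis) on each array (points) with the group mean (bar). Called lower genes are commonest among those under 10 kb (3.93%), and the 3 ICD arrays lie above 0 while the 3 Empty arrays lie below it.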

How the data were processed

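RNA from A549 cells was measured on 12 single-colour Illumina arrays, grouped by their titles. The table the authors deposited holds, per probe and array, an intensity on a linear scale without background subtraction and a detection p-value. Per the labels, biotin-labelled amplified RNA was hybridized; no source used here names the scanner software. The authors also deposited log2 values, which equal quantile-normalized log2 intensities within 5e-09 and carry no added background correction.

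The neqc function of limma 3.58.1 (R 4.3.3) corrected the background by normexp from the detection p-values with an offset of 16, then quantile-normalized and took log2. A limma model of the 4 groups on all 12 arrays, moderated by eBayes (residual degrees of freedom 8, prior 6.82, median array SD 0.146), gave each contrast, two-sided, adjusted by Benjamini-Hochberg over the 17954 probes at 0.05. Dim probes have their changes shrunk by background and offset, and a gene undetected throughout a group gets a bound. A symbol was unique for 30113 probes, multiple for 8 and missing for 17202; RefSeq genes of GRCh38.p14, the source of lengths and promoters, matched 30074.

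The members, the 45 gene lists (2028 genes) and the tests were chosen with earlier results of these data known. Named were 4 interferon genes, the 14 largest called, non-overlapping changes in each direction outside 4 interferon lists, up to 4 called members of each other list and direction by smallest adjusted p, genes called against all 3 other groups, and SEMA5A, PLXNB3, PLXNA1, NRP1 and MET. CCL2, genes named as further called members of a list and the motif searches were chosen after values were seen. On simulated data with 200 of 17954 probes changed, this contrast recovered 74% of 1.5-fold and 99% of 2-fold changes, with 13 false calls among 17754 probes. The simulation drew independent normal noise around normalized levels. It had no background, normalization or error shared across an array, so these rates check the fit and need not hold for the real arrays. Deviations of same-numbered ICD and Empty arrays correlated weakly (r = 0.036, 0.015 and 0.024), though above the best with another number (-0.015, -0.005 and 0.005). As all were small, the numbers were not used as pairs in the main fit. There were 0 pairs of identical arrays. The number of arrays limits the precision. One gene list is not reported here. Plots used Python 3.11.15 and matplotlib 3.10.9.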

Additional observations from a re-analysis of the deposited data

How the results depend on the processing

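Of the 147 named calls, 58 held under every setting tried and 0 reversed. Median scaling alone kept 102 of the 147. The log2 change of PLXNA1, never called, turned negative without Empty replicate 3 (-0.024) and reached 0.070 without Empty replicate 1. Probes higher and lower with ICD than with Empty numbered 1058 and 1032 without background correction, 400 and 269 under median scaling, 1026 and 1121 with array weights, 177 and 160 at an adjusted p under 0.01, and 533 and 449 with 1 probe for each symbol. The other settings with all 6 arrays gave 463 to 930 higher and 463 to 1019 lower probes. With any 1 array left out they numbered 221 to 395 and 223 to 393. The probes different between ICD and ECD numbered 139 at an adjusted p under 0.01, and 185 to 232 with an ICD or Empty array left out. The probes different between ICD and Full, 959 in all, became 1805 without background correction, 1716 with an offset of 50, 328 under median scaling, 1656 with trend and robust eBayes, 1801 with array weights, 65 at an adjusted p under 0.01, and 211 to 656 with an ICD or Empty array left out. ECD and Full arrays were not left out in turn. The cause of these differences was not tested, apart from the stricter threshold and the fewer arrays or probes tested. With replicate number as a block 596 probes were higher and 643 lower than with Empty. With 3 arrays a group, the number of arrays limits precision, and signal near background bounds what dim probes can show.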
